A study of Mus musculus and Homo sapiens with 176 samples.

Results

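A set of 7 genes of the mouse Prader-Willi and Angelman imprinted locus was followed in RNA of NeuN-sorted nuclei from cerebellum and prefrontal cortex. They were Ube3a, Ipw, Snrpn, Snurf, Ndn, Magel2 and Mkrn3, chosen as the features whose deposited gene symbol is one of these 7 names. Each name had 1 feature, which gave 7 of the 24854 features in each expression table. The RNA came from 8 libraries of nuclei of 1 C57BL/6 mouse. The study's mice were 8 to 10 weeks old, and no transgene or treatment is given for them. Nuclei were stained for NeuN, an antigen of neuronal nuclei and the product of Rbfox3, and sorted into a NeuN+ gate, aimed at neurons, and a NeuN- gate, aimed at glia. The 4 groups, with 2 libraries each, were cerebellar NeuN+, cerebellar NeuN-, prefrontal NeuN+ and prefrontal NeuN-. The other 114 mouse and 54 GM12878 samples of the series are chromatin profiles and were not analysed here. Since 1 animal gave all the RNA, p-values rest on differences between libraries, possibly technical ones, and carry nothing on variation among animals.

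The locus lies on the central part of mouse chromosome 7 and corresponds to the human region whose paternal loss causes Prader-Willi syndrome and whose loss of maternal UBE3A causes Angelman syndrome. Snrpn, Snurf, Ipw, Ndn, Magel2 and Mkrn3 are expressed from the paternal chromosome. A very long noncoding transcript, Snhg14, starts upstream of Snrpn, carries small nucleolar RNAs and the Ipw exons, and in neurons runs on through Ube3a in antisense, where it silences the paternal Ube3a copy. In glia, Ube3a is expressed from both copies. The measurements here are total levels in an inbred strain and do not separate the parental copies.

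On mm9, the genome build of the files, the members ran from Ube3a at chr7:66484120-66562097 to Mkrn3 at chr7:69562479-69565025, a stretch of 3.08 Mb. Between them lay Ipw at chr7:66874528-66934248, Snurf at chr7:67127387-67150042, Snrpn at chr7:67127388-67285105, Ndn at chr7:69493163-69494813 and Magel2 at chr7:69521865-69526526. Snrpn and Snurf shared 22655 bases, which is all but 1 base of the Snurf feature. The Ipw feature contained 2 small nucleolar RNA features of 90 bases, Snord116l1 and Snord116l2, and the other 4 members overlapped no other feature of the tables. Ndn, Magel2 and Mkrn3 sat together within 71.9 kb, 2.21 Mb beyond the end of Snrpn.

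Start-site sequences are shown for Snrpn and Snurf, whose levels moved together, for the start that Snhg14 shares with Snrpn, and for Ndn and Ube3a. Each is the RefSeq window from 250 bases before to 50 bases after an annotated start, written on the gene's strand in the build GRCm38.p6, which differs from that of the expression files. RefSeq lists 4 separate starts for Snrpn, numbered here from the most upstream. Start 1, at chr7:60450128-60450427 on the minus strand, is also the start of Snhg14, and start 4, at chr7:60005150-60005449 on the minus strand, is also that of Snurf. The Ndn window is chr7:62348027-62348326 and the Ube3a window chr7:59228500-59228799, both on the plus strand. Capitals mark CGCATGCG, a palindrome that reads the same on both strands and forms the core of the sequence bound by the transcription factor NRF1. It was chosen after the windows had been read.
Snrpn start 1 and Snhg14: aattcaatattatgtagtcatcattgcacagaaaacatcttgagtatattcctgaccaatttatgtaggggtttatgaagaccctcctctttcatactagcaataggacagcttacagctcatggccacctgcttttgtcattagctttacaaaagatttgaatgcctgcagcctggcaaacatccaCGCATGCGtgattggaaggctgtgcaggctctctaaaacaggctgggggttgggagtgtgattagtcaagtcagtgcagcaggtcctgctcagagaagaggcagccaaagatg
Snrpn start 4 and Snurf: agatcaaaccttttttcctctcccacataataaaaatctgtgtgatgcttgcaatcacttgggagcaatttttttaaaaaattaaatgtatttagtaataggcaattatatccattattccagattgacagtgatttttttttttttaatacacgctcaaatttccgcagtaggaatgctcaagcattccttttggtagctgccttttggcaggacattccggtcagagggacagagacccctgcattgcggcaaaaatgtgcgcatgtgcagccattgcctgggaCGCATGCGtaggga
Ndn: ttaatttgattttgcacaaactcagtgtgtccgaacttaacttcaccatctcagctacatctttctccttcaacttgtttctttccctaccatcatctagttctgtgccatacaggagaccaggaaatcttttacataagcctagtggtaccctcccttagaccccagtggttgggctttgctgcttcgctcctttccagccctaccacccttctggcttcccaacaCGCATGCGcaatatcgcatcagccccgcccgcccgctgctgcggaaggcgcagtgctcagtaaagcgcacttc
Ube3a: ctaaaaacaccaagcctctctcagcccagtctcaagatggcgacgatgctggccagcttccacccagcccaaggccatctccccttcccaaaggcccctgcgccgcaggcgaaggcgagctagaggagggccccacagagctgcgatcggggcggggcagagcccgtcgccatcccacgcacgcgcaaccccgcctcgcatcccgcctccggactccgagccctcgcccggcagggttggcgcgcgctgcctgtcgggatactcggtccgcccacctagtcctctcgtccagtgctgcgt

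The palindrome occurred once in each of the 4 Snrpn windows and once in the Ndn window, and these letters are not in the windows of Ipw, Ube3a, Magel2 and Mkrn3. Of 32817 RefSeq windows of this length, 1.86% held it. Snrpn starts 1 to 3 are copies of each other. They aligned at 83.0% to 84.7% identity, against 58.0% to 59.7% with start 4, while windows of different members aligned at 51.7% to 60.7%. The 3 upstream windows also shared a run of 49 bases that occurred in no other window of the table.
Shared run: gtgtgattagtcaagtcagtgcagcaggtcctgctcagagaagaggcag
The Ube3a window is the most CpG-rich of the members, with 29 CpG dinucleotides, a number reached by 12.9% of all windows. The Mkrn3 window has 15, Ndn 11, Magel2 10, the Snrpn and Snurf start 4 window 7, and the Ipw window 1, against a median of 7 over all windows. The expression values are summed per gene and do not say which Snrpn start was in use.

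Levels are given as deposited FPKM, in which fragments are divided by transcript length and by library size. Folds and tests were made after rescaling each library, as log2(scaled FPKM + 1), with limma fitted on all 14376 features that reached 1 FPKM in at least 2 libraries and Benjamini-Hochberg adjustment over them. Ipw, Snrpn, Snurf, Ube3a, Ndn and Mkrn3 passed this filter and Magel2 did not. FPKM sums per library ran from 289350 to 426851, with the highest 2 in prefrontal NeuN-, and 11256 to 12494 features reached 1 FPKM. Absolute depth is unknown. Rbfox3 was higher in NeuN+ in both regions, at 126 ± 3.48 scaled FPKM in cerebellar NeuN+ and 35.2 ± 0.704 in cerebellar NeuN-, and at 16.7 ± 0.361 in prefrontal NeuN+ and 11.8 ± 1.03 in prefrontal NeuN- (SD, n = 2 each). The 5 oligodendrocyte markers summed to 186 to 189 scaled FPKM in cerebellar NeuN+ and 1437 to 1457 in cerebellar NeuN-, and to 76.7 to 82.9 in prefrontal NeuN+ and 1694 to 1705 in prefrontal NeuN-. Astrocyte markers were likewise higher in NeuN-, with sums of 44.6 to 47.2 in cerebellar NeuN+, 473 to 476 in cerebellar NeuN-, 18.66 to 20.03 in prefrontal NeuN+ and 479 to 521 in prefrontal NeuN-. Microglia markers differed between the NeuN- gates of the regions, with sums of 21.57 to 23.46 in cerebellar NeuN- and 279.5 to 282.9 in prefrontal NeuN-. In NeuN+ they summed to 6.215 to 7.936 in cerebellum and 8.399 to 11.06 in prefrontal cortex. The 5 general neuronal messages, however, were present in every group. They summed to 1154 to 1162 scaled FPKM in cerebellar NeuN+ and 593 to 601 in cerebellar NeuN-, and to 1352 to 1357 in prefrontal NeuN+ and 1689 to 1795 in prefrontal NeuN-. The prefrontal sum follows Snap25, at 1024 scaled FPKM in NeuN+ and 1439 in NeuN-, and of the other 4, Syt1 and Celf4 were higher in prefrontal NeuN+ by 0.58 and 0.78, and Stmn2 and Elavl4 lower by -0.42 and -0.14. All 5 excitatory cortex markers were higher in prefrontal NeuN+, with sums of 42.4 to 44.3 in NeuN+ and 14.4 to 15.4 in NeuN-. In cerebellum granule cell markers summed to 655 to 659 in NeuN+ and 178 to 179 in NeuN-, Purkinje cell markers to 473 to 481 in NeuN+ and 423 to 452 in NeuN-, and interneuron markers to 30.8 to 31.9 in NeuN+ and 92.2 to 93.3 in NeuN-. The part of the neuronal and glial messages in the gate and region differences of the locus genes was not tested. Fewer cells of a type in a gate and less RNA per nucleus cannot be told apart in these bulk libraries.

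**Figure D1:**
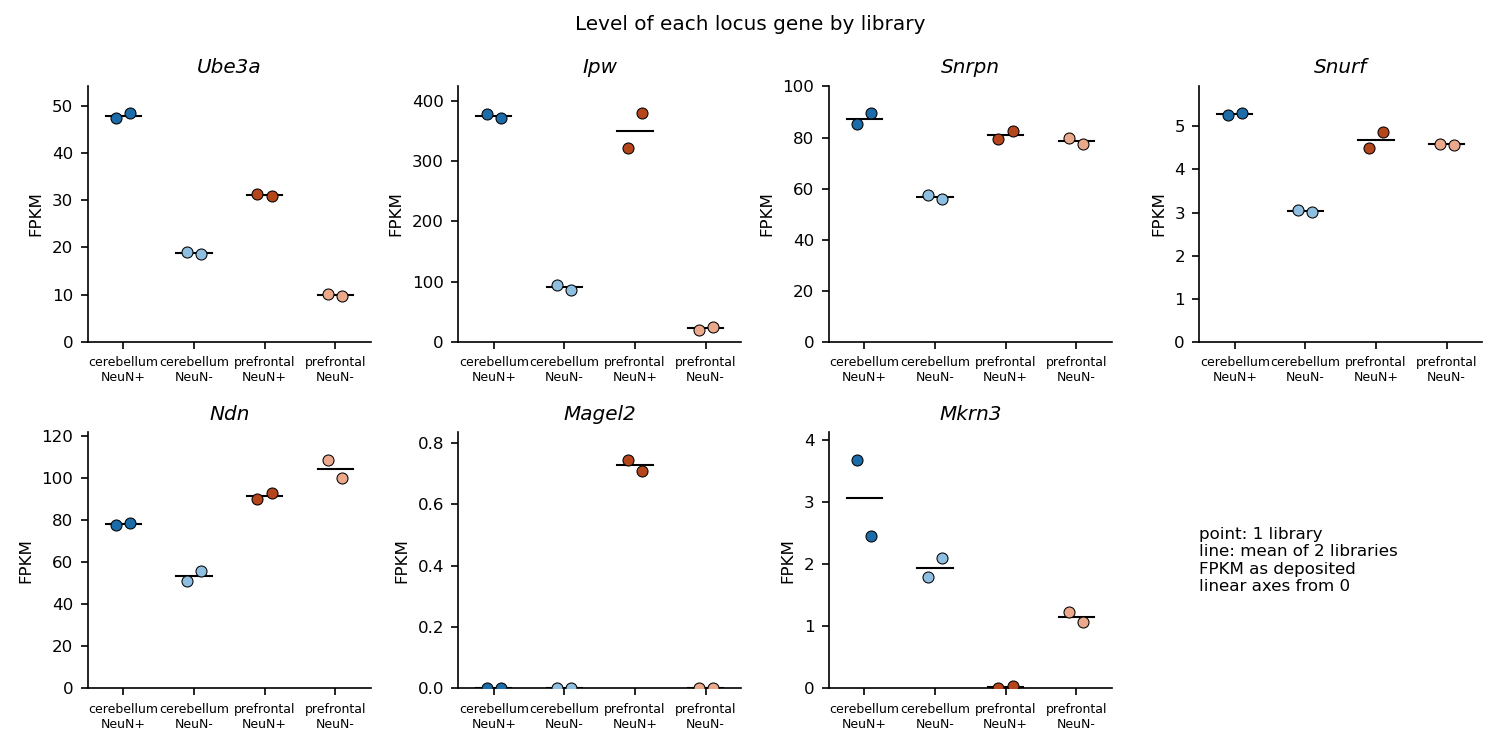
Deposited FPKM of the 7 locus genes in each library, on linear axes from 0. Points are libraries and lines the mean of the 2 libraries of a group. Ube3a and Ipw are higher in both NeuN+ groups, and Magel2 is above 0 in prefrontal NeuN+ alone. As deposited, Ndn is highest in prefrontal NeuN-, an order that depends on scaling.

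In cerebellum all 6 tested members were higher in NeuN+ than in NeuN-, where 32.4% of all tested features were called higher and 71.7% were called in either direction, with 39.2% of all features lower. The Mkrn3 call there was lost in 4 of 16 alternatives. Snrpn and Snurf overlap, so their calls are not independent in this or any later count. In prefrontal cortex 5 of the 6 passed the test, against 72.6% of all features. There 4 members were higher in NeuN+, where 35.0% of all features were, and 1, Mkrn3, was lower, where 37.6% were. With features called at rates this high, a single passing test says little about how far a gene stands out, and the size of the change is the more informative value. Ipw had a larger prefrontal change than all but 124 of the 14376 features, and Ube3a than all but 1244. For Snrpn and Snurf, 10085 and 10913 features had larger prefrontal changes.

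**Figure D2:**
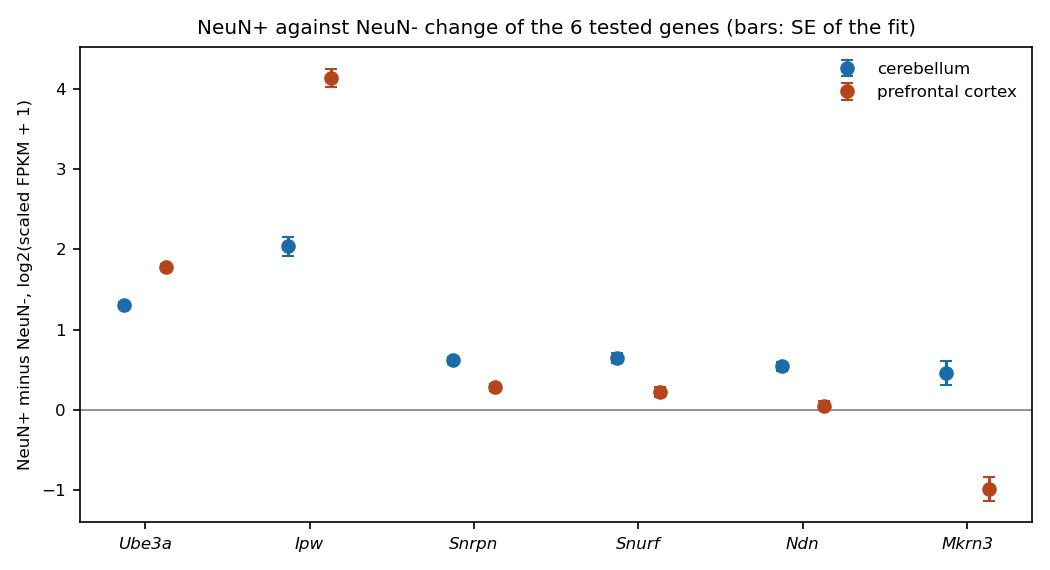
Difference between NeuN+ and NeuN-, in log2(scaled FPKM + 1), for the 6 tested locus genes in cerebellum (blue) and prefrontal cortex (rust), with bars for the standard error of the fit. Ipw and Ube3a have the larger positive difference in prefrontal cortex, and the other 4 have the larger positive one in cerebellum.

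Ube3a encodes a ubiquitin ligase of the HECT class. It was higher in NeuN+ nuclei in both regions and higher in cerebellum than in prefrontal cortex within both gates, so that its 4 groups lay in a fixed order without overlap. The libraries of cerebellar NeuN+ had 47.4 and 48.4 FPKM, and those of cerebellar NeuN- 18.97 and 18.68 FPKM. Prefrontal NeuN+ had 31.3 and 30.9 FPKM, and prefrontal NeuN- 10.0 and 9.73 FPKM. The 2 libraries of a group differed far less than any pair of groups.

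The NeuN+ level of Ube3a was 3.43-fold the NeuN- level in prefrontal cortex on the log2(scaled FPKM + 1) scale, a log2 change of 1.78 (SE 0.0409, limma adjusted p = 2.8e-07). In cerebellum the fold was 2.47, a log2 change of 1.31 (SE 0.0409, limma adjusted p = 9.6e-07). Between regions, Ube3a was higher in cerebellum by 0.60 in NeuN+ (limma adjusted p = 1.6e-05) and by 1.07 in NeuN- (limma adjusted p = 1.5e-06). The gate difference was therefore smaller in cerebellum, by -0.47 (SE 0.0579, limma adjusted p = 0.00042). Both gate changes and both region changes kept their direction and their call under all 17 alternative settings.

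Of the 13 other listed genes, HECT ligases with the ubiquitin-conjugating enzyme Ube2l3 that works with Ube3a, 7 were higher and 3 lower in prefrontal NeuN+, where 35.0% and 37.6% of all features were, with a median log2 change of 0.26 against -0.01 over all features. In cerebellum 6 were higher and 4 lower, against 32.4% and 39.2% of all features, with a median of 0.15 against -0.04. The largest prefrontal changes in the list were those of Herc3 (1.00), Herc2 (0.91) and Herc1 (0.79), ligases of the HERC family. In cerebellum Herc4 changed most, at 4.47 ± 0.301 scaled FPKM in NeuN+, against 13.8 ± 0.884 in NeuN- (SD, n = 2 each). Smurf1 followed at 5.45 ± 0.298 in NeuN+, against 1.80 ± 0.22 in NeuN-, and then Huwe1 at 4.93 ± 0.174 in NeuN+, against 9.80 ± 0.294 in NeuN-. Herc2, which lies near the locus, rose in both regions.

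Ipw, a spliced noncoding RNA of the Snhg14 transcription unit, had the largest gate change of the members in both regions. It stood at 378 and 371 FPKM in cerebellar NeuN+ and at 94.9 and 86.4 FPKM in cerebellar NeuN-. In prefrontal NeuN+ it had 321 and 379 FPKM, and in prefrontal NeuN- 20.4 and 24.5 FPKM. The NeuN+ groups of the 2 regions overlapped, while each NeuN+ group lay far above the NeuN- group of its region and the NeuN- groups lay apart.

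In NeuN+ nuclei of either region Ipw ranked above 99.5% of tested features, in cerebellar NeuN- above 96.1% and in prefrontal NeuN- above 76.9%. Its NeuN+ level was 17.6-fold the NeuN- level in prefrontal cortex (log2 change 4.14, SE 0.116, limma adjusted p = 5.8e-07) and 4.11-fold in cerebellum (log2 change 2.04, SE 0.116, limma adjusted p = 9e-06). The difference between those changes, cerebellar minus prefrontal, was -2.10 (SE 0.164, limma adjusted p = 6e-05). The regions differed in NeuN-, where cerebellum was higher by 2.19 (SE 0.116, limma adjusted p = 5.2e-06). In NeuN+ no difference between regions passed the test: the log2 change was 0.09 with a 95% interval of -0.19 to 0.37 (limma adjusted p = 0.5), and its sign depended on scaling and on 1 prefrontal library.

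The files hold other noncoding features of the same unit, and they did not all follow Ipw. RefSeq places Snhg14, Snrpn, Snurf and Ipw on the minus strand, so that higher coordinates lie upstream. In coordinate order, C230091D08Rik begins 1196 bases beyond the end of Ube3a. It had 13.7 and 15.1 FPKM in cerebellar NeuN+ and 6.23 and 6.29 FPKM in cerebellar NeuN-, and 16.6 and 17.3 FPKM in prefrontal NeuN+ and 0.732 and 0.749 FPKM in prefrontal NeuN-. The feature named Snhg14, which in coordinate order ends 8069 bases before Snurf, ran the other way. It had 5.58 and 5.76 FPKM in cerebellar NeuN+ and 15.9 and 16.3 FPKM in cerebellar NeuN-, and 1.96 and 1.37 FPKM in prefrontal NeuN+ and 10.47 and 11.96 FPKM in prefrontal NeuN-. No group of either feature overlapped the opposite gate of its region.

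C230091D08Rik was higher in NeuN+ by 3.498 in prefrontal cortex (SE 0.0635, limma adjusted p = 1.4e-07) and by 1.09 in cerebellum (SE 0.0635, limma adjusted p = 1e-05). Its prefrontal NeuN- mean, 0.657 scaled FPKM, lay under the pseudocount of 1, and the size of the prefrontal change ran from 2.01 to 4.56 over the alternatives. The Snhg14 feature fell by 2.00 in prefrontal NeuN+ (SE 0.12, limma adjusted p = 1.2e-05) and by 1.36 in cerebellar NeuN+ (SE 0.12, limma adjusted p = 6.8e-05). RefSeq gives C230091D08Rik as an older name of Snhg14 and places Ipw, Snrpn and Snurf inside the Snhg14 interval, which also overlaps Ube3a, so that the 2 features are pieces of 1 annotated gene at different points along it. The sources used here do not say whether reads were counted by strand. Without strand, reads from Ube3a and from an antisense transcript across it cannot be told apart. Ipw, Snrpn and Snurf lie on the same strand as Snhg14. Reads of Snhg14 running through them therefore cannot be told apart from their own by strand, whether or not strand was used.

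**Figure D3:**
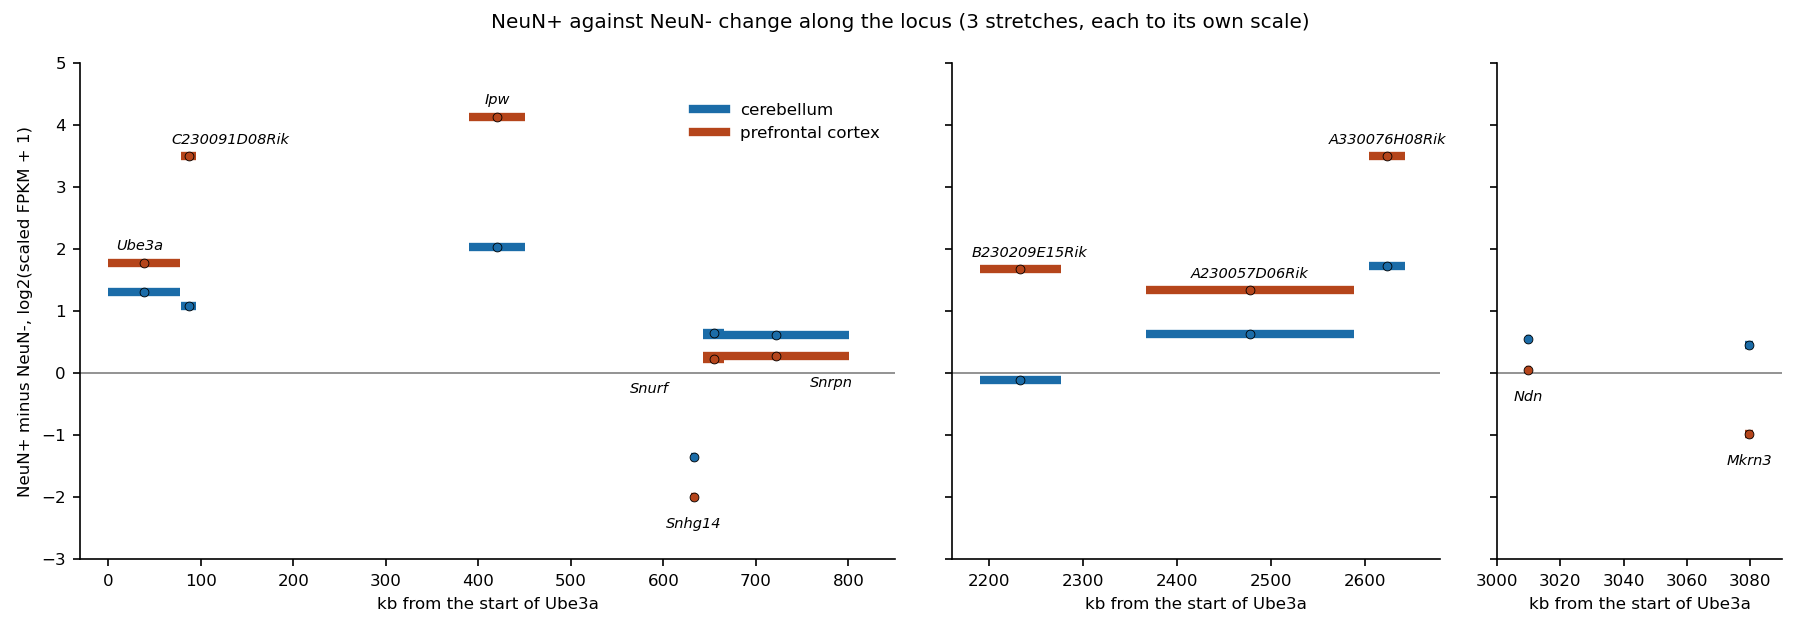
NeuN+ minus NeuN- difference in log2(scaled FPKM + 1) for 11 features along the locus, in cerebellum (blue) and prefrontal cortex (rust). Bars span each feature and points mark its centre, at distances from the start of Ube3a, in 3 stretches with separate horizontal scales. C230091D08Rik, Ipw and A330076H08Rik lie highest in prefrontal cortex, and the Snhg14 feature, between Ipw and Snurf, lies below 0 in both regions.

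Ratios within a library do not depend on scaling. The Snhg14 feature stood at 1.48% and 1.55% of the Ipw level in cerebellar NeuN+ and at 16.7% and 18.9% in cerebellar NeuN-. The same ratio was 0.612% and 0.362% in prefrontal NeuN+ and 51.5% and 48.9% in prefrontal NeuN-. The gates were far apart in both regions, and furthest in prefrontal cortex. The C230091D08Rik level was 29.0% and 31.2% of the Ube3a level in cerebellar NeuN+, against 32.9% and 33.7% in cerebellar NeuN-, close in both gates. In prefrontal NeuN+ it was 53.0% and 55.9%, against 7.30% and 7.69% in prefrontal NeuN-.

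**Figure D4:**
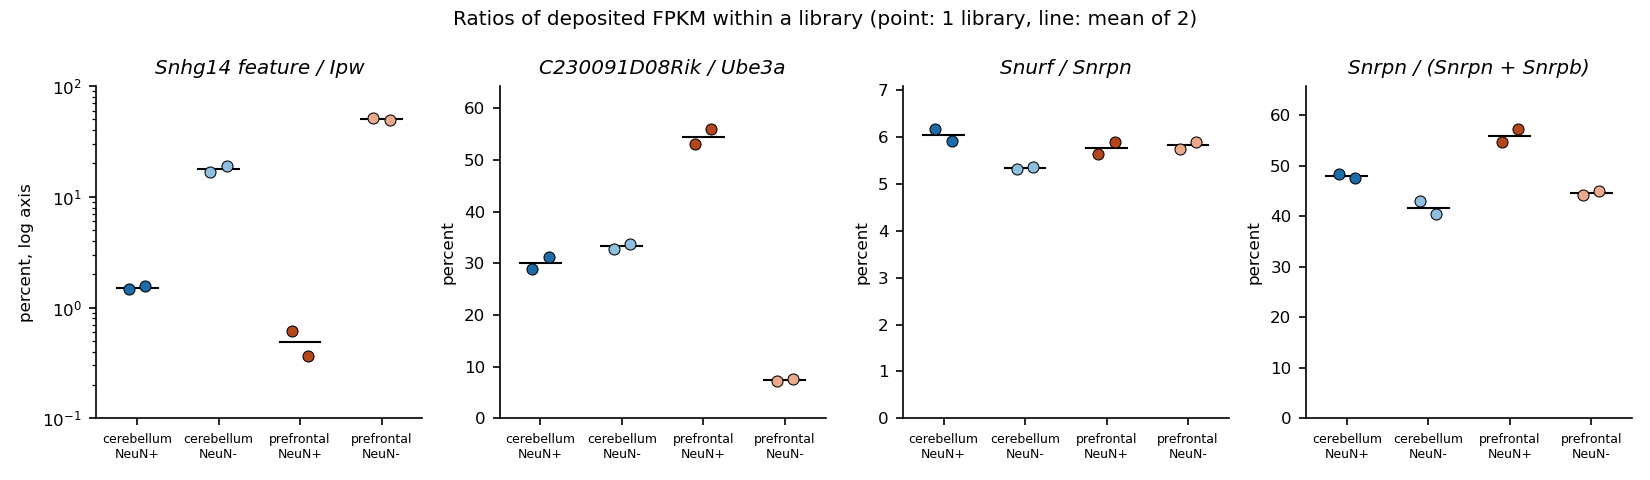
Within-library ratios of deposited FPKM, in percent, for 4 pairs of features, with points for libraries and lines for the mean of 2. The Snhg14 to Ipw ratio, on a log axis, is low in NeuN+ and high in NeuN-, and the Snurf to Snrpn ratio stays between 5.32% and 6.17% in all 8 libraries.

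The 10 Snord116, Snord116l1 and Snord116l2 features are small nucleolar RNAs and held 1 shared value in each library, from 0 to 35.6 FPKM. The confidence limits given with these values reach down to 0 in every library, so no level was read from them. Snord64, another small nucleolar RNA of the locus, was listed at 0 in all 8 libraries.

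A second group of noncoding features lies between Snrpn and Ndn, among the Mir344 microRNA features. A330076H08Rik had 107 and 110 FPKM in cerebellar NeuN+ and 31.7 and 32.4 FPKM in cerebellar NeuN-, and 57.0 and 59.2 FPKM in prefrontal NeuN+ and 6.13 and 4.12 FPKM in prefrontal NeuN-. It was higher in NeuN+ by 3.497 in prefrontal cortex (SE 0.131, limma adjusted p = 1.6e-06) and by 1.73 in cerebellum (SE 0.131, limma adjusted p = 3.2e-05). A230057D06Rik was also higher in NeuN+ in both regions, by 1.33 in prefrontal cortex and 0.64 in cerebellum (limma adjusted p = 2.6e-06 and 6.7e-05). B230209E15Rik was seen mainly in prefrontal cortex, with 0.274 and 0.372 FPKM in cerebellar NeuN+, 0.597 and 0.265 in cerebellar NeuN-, 8.89 and 8.42 in prefrontal NeuN+ and 2.42 and 2.45 in prefrontal NeuN-. It was higher in prefrontal NeuN+ by 1.67 (limma adjusted p = 2.8e-05). Of the 13 Mir344 features, 5 were above 0 in at least 1 library.

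Snrpn encodes SmN, a spliceosomal Sm protein abundant in brain, and Snurf is a small open reading frame at the front of the same transcript. Both had a clear gate difference in cerebellum and a small one in prefrontal cortex. Snrpn had 85.3 and 89.5 FPKM in cerebellar NeuN+ and 57.5 and 56.1 FPKM in cerebellar NeuN-. In prefrontal cortex it had 79.5 and 82.7 FPKM in NeuN+ and 79.8 and 77.5 FPKM in NeuN-, and these deposited values overlapped. Snurf was far lower but moved the same way, with 5.26 and 5.30 FPKM in cerebellar NeuN+ and 3.06 and 3.01 FPKM in cerebellar NeuN-, and 4.49 and 4.88 FPKM in prefrontal NeuN+ and 4.59 and 4.58 FPKM in prefrontal NeuN-. Within every library Snurf stood between 5.32% and 6.17% of Snrpn. Nearly all of the Snurf feature lies within Snrpn, so reads from the shared stretch cannot be assigned to either gene by position. How such reads were divided is not known, and the levels of Snrpn and Snurf are not independent measurements.

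In cerebellum the NeuN+ level of Snrpn was 1.53-fold the NeuN- level (log2 change 0.61, SE 0.0436, limma adjusted p = 2.4e-05), and that of Snurf 1.56-fold (log2 change 0.65, SE 0.0651, limma adjusted p = 0.00013). In prefrontal cortex the scaled changes were 0.28 for Snrpn (SE 0.0436, limma adjusted p = 0.0012) and 0.22 for Snurf (SE 0.0651, limma adjusted p = 0.02). These prefrontal calls rest on the scaling. With FPKM as deposited the changes were 0.04 for Snrpn (limma adjusted p = 0.41) and 0.03 for Snurf (limma adjusted p = 0.73), while the median over all features was -0.19. The Snurf call was also lost when prefrontal NeuN+ replicate 2, or either prefrontal NeuN- replicate, was left out, with changes of 0.17 to 0.23 (limma adjusted p = 0.057 to 0.11).

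The gate differences of both genes were larger in cerebellum, by 0.34 for Snrpn (limma adjusted p = 0.0027) and by 0.42 for Snurf (limma adjusted p = 0.0058). For Snrpn this call was lost with quantile normalization, at 0.08 (limma adjusted p = 0.29), and with a common sum, at 0.12 (limma adjusted p = 0.14). Between regions, Snrpn was lower in cerebellum by -0.24 in NeuN- (limma adjusted p = 0.002), with the sign turned at 0.09 under quantile normalization and 0.06 with a common sum. Snurf was lower there by -0.29 (limma adjusted p = 0.0055), a call lost with a common sum at -0.05 (limma adjusted p = 0.52). In NeuN+ neither gene passed the test between regions, at 0.10 for Snrpn with a 95% interval of -0.01 to 0.20 and at 0.14 for Snurf with an interval of -0.02 to 0.29 (limma adjusted p = 0.086 and 0.097). Both of these passed with quantile normalization and with a common sum.

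SmN takes the place of the ubiquitous SmB proteins of Snrpb in the Sm ring. Snrpb had 91.0 and 98.7 FPKM in cerebellar NeuN+ and 76.4 and 82.5 FPKM in cerebellar NeuN-, and 65.9 and 61.8 FPKM in prefrontal NeuN+ and 101 and 94.6 FPKM in prefrontal NeuN-. In prefrontal NeuN+ it was lower by -0.37 (limma adjusted p = 0.0016; -0.15 with a common sum, limma adjusted p = 0.057) and in cerebellar NeuN+ higher by 0.25 (limma adjusted p = 0.0089; 0.053 without cerebellar NeuN- replicate 1). The share of Snrpn in the sum of both messages was 48.4% and 47.5% in cerebellar NeuN+, 43.0% and 40.5% in cerebellar NeuN-, 54.7% and 57.2% in prefrontal NeuN+ and 44.21% and 45.04% in prefrontal NeuN-. NeuN+ lay above NeuN- in both regions without overlap, and reads of near-identical stretches of these paralogs may have been split between them.

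Of the 7 listed Sm genes, Snrpb included and Snrpn not, 3 were lower and 0 higher in prefrontal NeuN+, with a median log2 change of -0.43 against -0.01 over all features, while 4 did not pass. Over all features 37.6% were lower and 35.0% higher. In cerebellar NeuN+ 6 were higher and 1 lower, against 32.4% and 39.2% of all features, with a median of 0.36 against -0.04. Of these, the higher Snrpf lost its call in 9 of 17 alternatives (limma adjusted p = 0.014 to 0.2 over all 17), and the lower Snrpg lost it in 3, all leaving out a library (limma adjusted p = 0.0066 to 0.072). Snrpd1 stood at 39.5 ± 1.54 scaled FPKM in prefrontal NeuN+ and 69.7 ± 7.72 in prefrontal NeuN-, and Snrpd2 at 111 ± 5.01 in prefrontal NeuN+ and 185 ± 25.4 in prefrontal NeuN-. Snrpd3 had the largest change in cerebellum, at 17.9 ± 1.36 scaled FPKM in NeuN+ and 2.61 ± 1.01 in NeuN- (SD, n = 2 each). Among the 4 core proteins of box C/D small nucleolar RNPs, the class to which Snord116 belongs, Nop58 was higher in NeuN+ in both regions, by 0.55 in prefrontal cortex and 0.48 in cerebellum (limma adjusted p = 0.0024 and 0.0045), and the methyltransferase gene Fbl was lower in cerebellar NeuN+ by -0.85 (limma adjusted p = 0.0017). In all, 1 of the 4 was higher and 1 lower in prefrontal NeuN+, against 35.0% and 37.6% of all features, and 3 were higher and 1 lower in cerebellar NeuN+, against 32.4% and 39.2%. The lower prefrontal gene, Nhp2l1 at -0.27, lost its call in 4 of 17 alternatives, with -0.0066 under quantile normalization (limma adjusted p = 0.95; 0.001 to 0.95 over all 17).

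Ndn encodes necdin, a MAGE-family protein known as a growth suppressor of postmitotic neurons. It was abundant in every group. The libraries had 77.9 and 78.8 FPKM in cerebellar NeuN+, 51.2 and 56.1 FPKM in cerebellar NeuN-, 90.0 and 93.2 FPKM in prefrontal NeuN+, and 109 and 100 FPKM in prefrontal NeuN-. Ndn ranked above 92.7% to 95.8% of tested features in all 4 groups. In cerebellum the gates lay apart, and cerebellar libraries of each gate lay below the prefrontal ones.

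Ndn was higher in cerebellar NeuN+ by 0.54 (SE 0.0561, limma adjusted p = 0.00015). In prefrontal cortex the scaled change did not pass the test, at 0.05 with a 95% interval of -0.09 to 0.18 (limma adjusted p = 0.46). This value is set by the scaling. It was -0.19 with FPKM as deposited (limma adjusted p = 0.031), 0.32 with quantile normalization (limma adjusted p = 0.0022) and 0.27 with a common sum (limma adjusted p = 0.0043), and relative to the median over all features it ran from 0.01 to 0.24. Between regions, cerebellum was lower by -0.23 in NeuN+ (limma adjusted p = 0.0076) and by -0.73 in NeuN- (limma adjusted p = 2.7e-05). The gate difference was larger in cerebellum by 0.49 (limma adjusted p = 0.0015).

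Magel2, the other MAGE gene of the locus, encodes a protein that binds the ligase TRIM27 and acts in endosomal protein recycling. It was seen in 1 group alone. Both prefrontal NeuN+ libraries held it, at 0.744 FPKM with deposited confidence limits of 0.521 and 0.968 and at 0.708 FPKM with limits of 0.493 and 0.923. It was listed at 0 in the 2 libraries of each of the other 3 groups, and no fold is given against them. Its prefrontal NeuN+ level is under the filter of 1 FPKM. No test is given for it, since the other groups have no spread.

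The list of 6 other MAGE genes held 2 higher and 2 lower members in prefrontal NeuN+, near the 35.0% and 37.6% of all features. In cerebellar NeuN+ it held 0 higher and 2 lower, against 32.4% and 39.2%. Maged1, the most abundant of them, differed in sign between regions, at 298 ± 2.33 scaled FPKM in prefrontal NeuN+ and 214 ± 13.2 in prefrontal NeuN-, and at 90.2 ± 2.63 in cerebellar NeuN+ and 133 ± 3.17 in cerebellar NeuN- (SD, n = 2 each). Maged2 was lower in NeuN+ in both regions, by -0.80 and -1.55, and Magee2 was higher in prefrontal NeuN+ by 1.80. Of 7 partners of Magel2 in retromer, the WASH complex and its ligase unit, 3 were higher and 3 lower in prefrontal NeuN+ and 2 were higher and 2 lower in cerebellar NeuN+, near the same shares of all features. Fam21 and Ccdc53, of the WASH complex, were lower in prefrontal NeuN+ by -1.62 and -0.99 and Trim27 was higher by 0.64. In cerebellar NeuN+ the deubiquitinase gene Usp7 was higher by 1.38, the retromer gene Vps26a was higher by 0.69, and Vps35, another retromer gene, was lower by -1.53.

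Mkrn3 encodes a makorin-family ubiquitin ligase, and loss of the paternal gene in humans causes early puberty. It was a low message, and lower in prefrontal NeuN+ than in prefrontal NeuN-. The libraries had 3.67 and 2.46 FPKM in cerebellar NeuN+ and 1.79 and 2.09 FPKM in cerebellar NeuN-. Of the prefrontal NeuN+ libraries, replicate 1 was listed at 0 and replicate 2 at 0.0306 FPKM with confidence limits of 0 and 0.0918, against 1.22 and 1.07 FPKM in prefrontal NeuN-. Prefrontal NeuN+ lay below all other libraries, and it is the group in which Magel2, its neighbour, was seen.

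The prefrontal gate change of Mkrn3 was -0.99 on the scale with a pseudocount of 1 (SE 0.146, limma adjusted p = 0.00089), and -3.28 with a pseudocount of 0.1 and -0.26 with 5, so that its size depends on the pseudocount and no fold is given. In cerebellar NeuN+ Mkrn3 was higher by 0.46 (SE 0.146, limma adjusted p = 0.027). That call was lost with a pseudocount of 0.1 and without cerebellar NeuN+ replicate 1, cerebellar NeuN- replicate 1 or cerebellar NeuN- replicate 2, with changes of 0.24 to 0.61 (limma adjusted p = 0.05 to 0.12). Cerebellum was above prefrontal cortex by 2.03 in NeuN+ (limma adjusted p = 2.1e-05) and by 0.58 in NeuN- (limma adjusted p = 0.0094; 0.052 without cerebellar NeuN- replicate 2). The gate changes of the 2 regions differed by 1.45 (SE 0.207, limma adjusted p = 0.00086). Of its listed relatives, Mkrn2 was higher in cerebellar NeuN+ by 0.75 (limma adjusted p = 8e-04), and Mkrn1 was higher by 0.20 in prefrontal cortex and by 0.19 in cerebellum. The Mkrn1 calls were lost without 1 of several libraries, and the prefrontal sign turned unscaled, at -0.02.

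Across regions, 3 of the 6 tested members passed in NeuN+, against 77.2% of all features. Ube3a and Mkrn3 were higher in cerebellum, where 36.5% of all features were, and Ndn was lower, where 40.7% were. In NeuN- all 6 passed, against 79.5% of all features, with Ipw, Ube3a and Mkrn3 higher in cerebellum and Snrpn, Snurf and Ndn lower, against 40.5% and 39.0%. A change of gate difference from region to region passed for all 6, against 70.1% of all features. It was positive for Snrpn, Snurf, Ndn and Mkrn3 and negative for Ipw and Ube3a, against 33.1% positive and 37.0% negative. The 5 comparisons share libraries with each other, and Snrpn and Snurf overlap, so these counts are not independent.

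Profiles over the 8 libraries were compared by the root mean square difference of centred log2(scaled FPKM + 1), with no test. Snrpn and Snurf, whose features overlap and are not independent, were the closest pair of members, at 0.0311. Ndn followed at 0.226 from Snrpn and 0.219 from Snurf. Ipw was 0.892 from Ube3a, its nearest member, and Ipw and Mkrn3 were the furthest pair at 1.90. Outside the members, the features nearest to Ipw were Grin1 at 0.306, the obligate NMDA receptor subunit gene, then C230091D08Rik at 0.424 and A330076H08Rik at 0.442, both from the locus. Nearest to Ube3a was Kcnj9 at 0.0762, an inward rectifier potassium channel gene. Eftud2, a spliceosomal GTPase gene, was nearest to Snrpn at 0.0496 and second nearest to Snurf at 0.0648, after Apbb1 at 0.0607. Trmt2a was nearest to Ndn at 0.0513, and Hbegf to Mkrn3 at 0.123.

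Genes that flank the members on chromosome 7, most of them not imprinted, were set beside the locus. Of 11 listed neighbours 8 passed the filter, and in prefrontal NeuN+ 5 were higher and 2 lower, against 35.0% and 37.6% of all features, with a median log2 change of 0.44 against -0.01 over all features. In cerebellar NeuN+ 4 were higher and 1 lower, against 32.4% and 39.2%, with a median of 0.16 against -0.04. All 8 were lower in cerebellum than in prefrontal cortex in NeuN+, against 40.7% of all features. Peg12, the imprinted gene beyond Mkrn3, stayed under 0.189 FPKM in all libraries.

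Imprinted genes elsewhere in the genome gave the setting for the gate changes of the locus. Of 34 listed, 23 passed the filter. In prefrontal NeuN+ 12 were higher and 7 lower, against 35.0% and 37.6% of all features, with a median log2 change of 0.32 against -0.01 over all features. In cerebellar NeuN+ 13 were higher and 6 lower, against 32.4% and 39.2%, with a median of 0.30 against -0.04. Meg3, a maternally expressed noncoding RNA, was the 1 gene of the list with a larger prefrontal change than Ipw, at 501 ± 2.89 scaled FPKM in prefrontal NeuN+ and 10.5 ± 0.0644 in prefrontal NeuN-, while in cerebellum it had 472 ± 4.61 in NeuN+ and 195 ± 6.67 in NeuN- (SD, n = 2 each). Grb10 and Mirg followed in prefrontal cortex at 2.38 and 2.18, with 1.23 to 3.19 and 0.81 to 4.50 over the alternatives. In cerebellum Airn, an antisense RNA of the Igf2r gene, changed most, at 2.33, then Mest at 1.99, both higher in NeuN+, and Igf2, at -1.62, lower. Over the alternatives Airn ran from 2.00 to 2.45, Mest from 0.95 to 2.79 and Igf2 from -3.70 to -0.53. These genes kept their direction and call, but the order by size is not fixed.

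**Figure D5:**
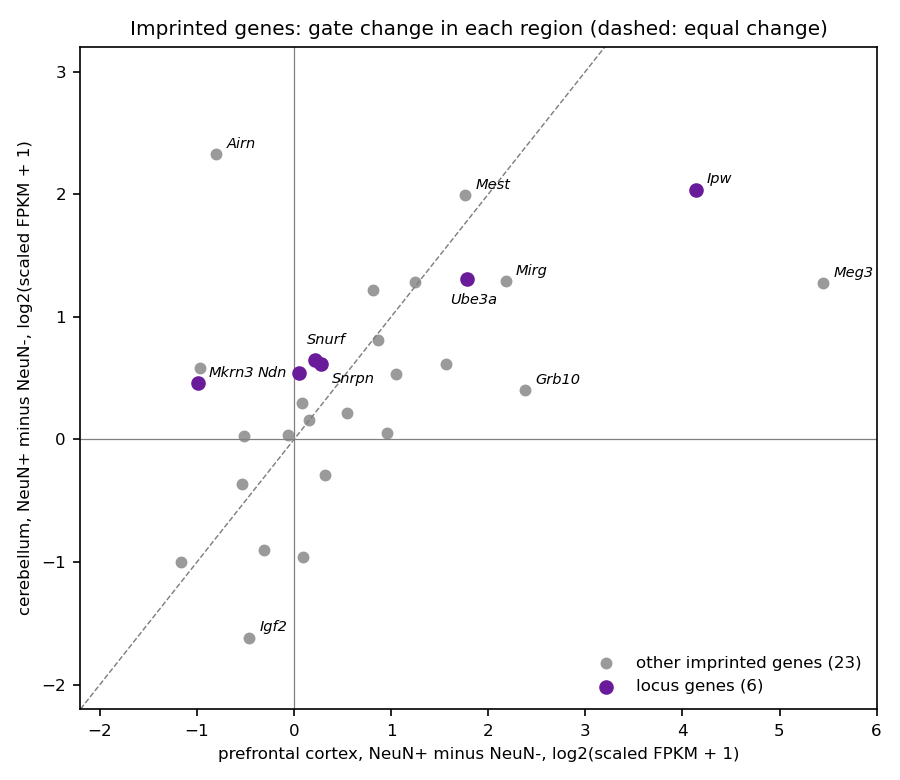
NeuN+ minus NeuN- difference in log2(scaled FPKM + 1) in prefrontal cortex (horizontal) and cerebellum (vertical) for the 6 tested locus genes (purple) and 23 imprinted genes elsewhere (grey). The dashed line marks equal change. Ipw and Meg3 lie far to the right, with prefrontal changes of 4.14 and 5.45, and Mkrn3 and Airn lie left of 0 in prefrontal cortex and above 0 in cerebellum.

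Genes that act on imprints, DNA methyltransferases, KRAB zinc finger corepressors and histone methyltransferases among them, were measured in the same libraries. Of 13 listed 12 passed the filter, and 6 were higher and 2 lower in NeuN+ in each region, against 35.0% and 37.6% of all features in prefrontal cortex and 32.4% and 39.2% in cerebellum. Ehmt1, a histone H3 lysine 9 methyltransferase gene, was higher in prefrontal NeuN+ by 1.05, and Zfp445, an imprint-binding zinc finger gene, by 1.01. Zfp57, another such gene, was low, at 0.405 ± 0.222 scaled FPKM in prefrontal NeuN+ and 1.21 ± 0.285 in prefrontal NeuN- (SD, n = 2 each). Setdb1, Smchd1 and Trim28 were higher in cerebellar NeuN+ by 0.72, 0.62 and 0.59. Between regions 10 of the 12 were higher in cerebellum in each gate, counted separately, against 36.5% of all features in NeuN+ and 40.5% in NeuN-.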

How the data were processed

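Nuclear RNA of 8 libraries was analysed. Per the file headers, the tables are Cufflinks gene-level output and hold FPKM with confidence limits, deposited already adjusted for library size and transcript length. Trim Galore 0.3.7, Bowtie 1.1.1, TopHat2 2.1.1, Cufflinks, Bismark and mm9 are named in the submitters' processing notes, without roles. No source used here gives the annotation, the use of strand or the dissection of prefrontal cortex. Of fragment numbers under 20 implied by the confidence limits, 49.3% to 54.2% lay within 0.05 of an integer. Whole reads could therefore not be had, and count tests were not run.

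FPKM were multiplied by median-of-ratios factors of 0.878 to 1.05, taken from 9109 features that reached 1 FPKM everywhere. The filter left 14376 features with 1 FPKM or more in 2 or more libraries. The model, in limma 3.58.1 under R 4.3.3, was a mean per group on log2(scaled FPKM + 1) with the variance trend and 4 residual degrees of freedom. The pseudocount understates changes of low genes. Tests were two-sided, and a call is a Benjamini-Hochberg adjusted p below 0.05 in 1 of 5 comparisons. The script was tested on simulated data. Replicates 1 and 2 shared 0 identical values above 0. The labels do not say that same-numbered libraries share anything.

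The members and gene lists were chosen with earlier results of these data known. Of 159 list names 155 had a feature, and 2 were dropped for lying outside the locus. Named were all members, the noncoding and neighbouring features of the locus, Snrpb, Rbfox3, the 3 nearest profiles of each member among features with at least 5 scaled FPKM, and up to 3 called genes per list and comparison with the largest change, where the higher mean reached 1 scaled FPKM. Not every gene this rule allows is described, and some are not reported here. Alternatives were pseudocounts of 0.1 and 5, no filter, a filter at 5 FPKM, 3 other scalings, a replicate block, Snrpn and Snurf summed, and leaving out each library.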

Additional observations from a re-analysis of the deposited data

Results flagged for a closer look

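The gate change differed between the regions, by the test of that difference itself, for all 6 tested members. NeuN+ minus NeuN- was smaller in cerebellum than in prefrontal cortex for Ipw, by -2.10 (limma adjusted p = 6e-05), and for Ube3a, by -0.47 (limma adjusted p = 0.00042). It was larger in cerebellum for Mkrn3, by 1.45 (limma adjusted p = 0.00086), for Ndn, by 0.49 (limma adjusted p = 0.0015), for Snurf, by 0.42 (limma adjusted p = 0.0058), and for Snrpn, by 0.34 (limma adjusted p = 0.0027). The Snrpn call was lost with quantile normalization, at 0.0842 (limma adjusted p = 0.29), and with a common sum, at 0.1199 (limma adjusted p = 0.14). Of all features 70.1% passed the same test. In prefrontal cortex the 5 general neuronal messages summed to 1352 to 1357 scaled FPKM in NeuN+ and 1689 to 1795 in NeuN-, a sum that follows Snap25, while the 5 excitatory cortex markers summed to 42.4 to 44.3 in NeuN+ and 14.4 to 15.4 in NeuN-. The part of either in these differences was not tested.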

How the results depend on the processing

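The gate changes of Ipw, Ube3a, C230091D08Rik, A330076H08Rik and the Snhg14 feature kept their direction and call under all 17 alternatives. The scalings moved the median log2 change of all features. In the prefrontal gate comparison it was -0.01 as reported, -0.19 unscaled, 0.08 with quantile normalization and 0.14 with a common sum, and the share of called features that were higher was 48.2%, 36.1%, 55.4% and 59.9%. For cerebellum against prefrontal cortex in NeuN- it was 0.02, -0.13, 0.07 and 0.26, and for the difference of the gate changes -0.06, 0.13, 0.02 and -0.23. Relative to that median, the prefrontal gate change of Snrpn was 0.29, 0.24, 0.43 and 0.35. Members called between regions in NeuN+ numbered 3, and 5 with quantile normalization and 5 with a common sum. Signs turned for Ndn in the prefrontal gate (-0.19 unscaled, -0.002 to 0.097 leaving out libraries, lowest without prefrontal NeuN- replicate 2), Mkrn1 there (-0.0231 unscaled), Ipw between regions in NeuN+ (-0.035 with quantile normalization; -0.0291 to 0.207 leaving out libraries, lowest without prefrontal NeuN+ replicate 1), Snrpn between regions in NeuN- (0.0886 with quantile normalization, 0.0615 with a common sum), Snrpb there (0.27 and 0.23), and B230209E15Rik in the cerebellar gate (0.42 with quantile normalization, -0.2824 to 0.0674 leaving out libraries, highest without cerebellar NeuN- replicate 1). The cause was not tested.

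With the replicate number as a block, 5 members were called in the prefrontal and 6 in the cerebellar gate comparison, 3 and 6 between regions in NeuN+ and NeuN-, and 6 for the difference, as without it. Correlations of replicate differences between groups, taken across features, ran from -0.045 to 0.0342, so no effect common to same-numbered libraries was seen across features. With 2 libraries per group, these correlations cannot show whether same-numbered libraries shared a sort or a preparation. Leaving out each library gave 4 to 5 members in the prefrontal and 5 to 6 in the cerebellar gate comparison, and 3 and 5 to 6 between regions in NeuN+ and NeuN-. The values of Magel2 and Mkrn3 near 0 cannot show whether the message is absent. Relative depth, as implied by the confidence limits, was lowest in the prefrontal NeuN+ libraries, at 1 and 1.03. It ran from 1.14 to 1.51 in the other libraries. The part of depth in the Magel2 and Mkrn3 values was not tested.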

Other observations

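Mir344g, a microRNA feature beside A330076H08Rik and named after its values were seen, had 459 and 874 FPKM in cerebellar NeuN+, 426 and 466 FPKM in cerebellar NeuN-, 1220 and 1108 FPKM in prefrontal NeuN+ and 53.6 and 58.9 FPKM in prefrontal NeuN-. Its interval overlaps that of A330076H08Rik, and FPKM of features this short are imprecise.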
